A study of Mus musculus with 10 samples.

Results

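Neutrophil granule and surface genes were followed in 10 RNA-seq libraries of sorted hepatic stellate cells (HSCs), the retinoid-storing mesenchymal cells of the liver. The 10 genes were *S100a8*, *S100a9*, *Retnlg*, *Csf3r*, *Ly6g*, *Camp*, *Ngp*, *Lcn2*, *Ltf* and *Mpo*, and each was found by its gene symbol among the 25233 entries of the normalized count table that carried one, of 62322 entries in all. The 5 hypHSC libraries came from hypertrophied HSCs of C57BL/6J mice on a CDAHFD, a high-fat diet lacking choline that causes steatohepatitis with fibrosis. hypHSC 1 and 2 came from mice aged 19 weeks after 13 weeks of diet, and hypHSC 3, 4 and 5 from mice aged 18 weeks after 12 weeks. The 5 qHSC libraries came from quiescent HSCs of C57BL/6J mice on a standard diet, aged 36 weeks for qHSC 1, 2 and 5 and 34 weeks for qHSC 3 and 4. All mice were male by the study's methods, and none was given a transgene or drug in the labels. hypHSCs were sorted on side scatter and green fluorescence and qHSCs on side scatter and blue fluorescence, after different digestion conditions. Diet, age, dissociation and sort gate therefore cannot be told apart in any difference below. The replicates are preparations chosen for RNA quality, and the labels do not tie them to single mice, so p-values measure the spread between preparations. The study obtained more hypHSC samples than it used mice for them, so some of the 5 hypHSC preparations may share a mouse.

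Neutrophils are short-lived phagocytes that form in bone marrow and load their granules in sequence. Promyelocytes make the primary granule enzymes, such as myeloperoxidase (*Mpo*) and elastase. Myelocytes then make the secondary granule proteins lactoferrin (*Ltf*), lipocalin 2 (*Lcn2*), cathelicidin (*Camp*) and neutrophilic granule protein (*Ngp*), with C/EBP epsilon as a main regulator. Mature neutrophils carry large amounts of the calprotectin pair *S100a8* and *S100a9*, the resistin-like *Retnlg*, the G-CSF receptor *Csf3r* and the surface antigen *Ly6g*. Several of these transcripts are not confined to neutrophils. *S100a8*, *S100a9* and *Csf3r* are also found in monocytes, and *Lcn2* is made by hepatocytes, macrophages and epithelia under inflammation.

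The 250 bases before the start of 4 of the genes are shown, from the GRCm39 genome with GENCODE starts, because they pair genes with high and near-zero counts in hypHSCs that share a C/EBP-type match. Capitals mark matches to TTGCNNAA, a C/EBP consensus, on either strand, and in *Lcn2* also the upstream match to a κB consensus.
*S100a9*, chr3:90603072-90603321, minus strand: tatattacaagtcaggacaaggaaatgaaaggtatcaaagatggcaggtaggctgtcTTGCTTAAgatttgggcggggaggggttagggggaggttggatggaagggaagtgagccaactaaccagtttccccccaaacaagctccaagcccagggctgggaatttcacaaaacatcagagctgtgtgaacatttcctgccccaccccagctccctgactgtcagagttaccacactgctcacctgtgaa
*Lcn2*, chr2:32277810-32278059, minus strand: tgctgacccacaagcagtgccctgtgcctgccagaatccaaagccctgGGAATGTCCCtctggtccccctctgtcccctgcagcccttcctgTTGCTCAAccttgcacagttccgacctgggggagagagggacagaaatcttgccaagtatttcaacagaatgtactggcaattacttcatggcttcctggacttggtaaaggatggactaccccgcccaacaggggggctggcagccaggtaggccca
*Ngp*, chr9:110248565-110248814, plus strand: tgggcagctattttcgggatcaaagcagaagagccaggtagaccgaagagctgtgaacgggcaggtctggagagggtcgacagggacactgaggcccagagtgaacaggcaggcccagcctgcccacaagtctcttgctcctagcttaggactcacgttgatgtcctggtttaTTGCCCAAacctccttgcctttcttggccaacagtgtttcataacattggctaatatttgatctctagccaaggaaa
*Camp*, chr9:109678686-109678935, minus strand: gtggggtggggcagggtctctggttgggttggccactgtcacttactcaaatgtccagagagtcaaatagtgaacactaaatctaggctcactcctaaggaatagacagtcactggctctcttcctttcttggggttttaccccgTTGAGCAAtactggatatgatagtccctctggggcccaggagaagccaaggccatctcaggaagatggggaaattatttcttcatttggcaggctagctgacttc
*S100a9* and *Lcn2* were higher in hypHSCs, while *Ngp* and *Camp* were at or near 0 in most libraries, and all 4 windows held the C/EBP match. Of the 10 windows, 6 held it (*Lcn2*, *S100a9*, *Camp*, *Ngp*, *Ltf* and *Ly6g*), against 9.34% of 21757 windows of protein-coding genes. GAGGAAG, a PU.1 consensus searched on both strands, was found in 3 (*S100a8*, *Mpo* and *Ly6g*), against 10.3% of windows, and the κB consensus in 1 (*Lcn2*), against 7.63%. No window of *Csf3r* or *Retnlg* held any of the 3. These are matches of letters and not measured binding sites.

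The libraries held 30534719 to 43283589 reads on named genes in hypHSCs and 35640104 to 47317028 in qHSCs. Values are normalized counts, which are reads divided by the library's DESeq2 size factor, and 3 reads, the level taken as the floor of detection, corresponded to 2.25 to 4.54 normalized counts. The labelled cell type was checked against marker lists. All 10 quiescent HSC markers were called lower in hypHSCs by the criteria given below, as were 21.7% of all genes tested. The largest change was that of *Hhip*, an inhibitor of hedgehog signalling (log2 fold change -11.27, SE 0.62), which passed the filter only through qHSCs. Among the others was *Lrat*, which makes retinyl esters, at 1593 ± 709.3 against 105800 ± 23990 normalized counts (SD, n = 5 in each group). All 12 core macrophage genes were called higher in hypHSCs, as were 17.8% of all genes tested. Their summed level was 1126000 to 1574000 normalized counts in hypHSCs against 6150 to 117800 in qHSCs. Among them, *Ptprc*, the pan-leukocyte CD45, averaged 22570 ± 4920 against 972.6 ± 884.8 normalized counts, *Cd68*, a lysosomal protein of phagocytes, 157300 ± 33250 against 2603 ± 3172, *Adgre1*, which encodes F4/80, 5507 ± 2689 against 531.5 ± 684.2, and *Lyz2*, lysozyme of phagocytes, 845700 ± 76690 against 10590 ± 12430. The groups overlapped for *Adgre1*, at 1113 normalized counts in hypHSC 5 and 1580 in qHSC 4, and for *Csf1r*, *C1qa* and *C1qb*. *Mertk*, a receptor for apoptotic cells, had the smallest change of the 12 (log2 fold change 1.73, SE 0.23). No gene of this list was at 0 in any library. The part of macrophage transcripts in the neutrophil gene results was not tested. In bulk RNA, fewer cells of a type and less RNA per cell cannot be told apart.

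The main question was which of the 10 genes differed between hypHSCs and qHSCs. The calprotectin pair, *Retnlg*, *Csf3r* and *Lcn2* were higher in hypHSCs, *Ltf* was not called, and *Ly6g*, *Camp*, *Ngp* and *Mpo* were too low to be tested. A gene was tested when it had at least 10 normalized counts in at least 5 libraries, and was called a differentially expressed gene (DEG) when its log2 fold change was 1 or more in size and its limma adjusted p did not exceed 0.05. Of the 6 genes tested, 5 were called higher in hypHSCs and 0 lower, where 39.5% of the 14630 genes tested were called, 17.8% higher and 21.7% lower. *S100a9* and *Retnlg* passed the filter only through the hypHSC libraries and therefore had to differ, so this count carries no weight as a share of the 10. Log2 fold changes below are on the log2(normalized count + 1) scale, with their limma standard error (SE).

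*S100a8*, the smaller calprotectin subunit (chr3:90576377-90577341, mm39), was the most abundant. Its normalized counts in hypHSC 1 to 5 were 3126, 4294, 1180, 1050 and 1479, and in qHSC 1 to 5 they were 0, 5.11, 0, 96.7 and 0. Every hypHSC library was above every qHSC library, an order shown by 17.6% of all genes tested. The lowest hypHSC value was over 10 times the highest qHSC value, that of qHSC 4. The means were 2226 ± 1425 and 20.4 ± 42.7 (SD, n = 5 each), a log2 fold change of 9.05 (SE 1.18, limma adjusted p = 9.17e-05). The exact two-sided permutation p was 0.00794, the smallest that 5 libraries against 5 can give. With DESeq2 on the recovered reads, the log2 fold change was 6.77.

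*S100a9*, the partner subunit (chr3:90599938-90603028), had the same order of groups. The hypHSC libraries held 776, 1330, 278, 339 and 309 normalized counts, and the qHSC libraries 0, 0, 0, 7.70 and 0. The single qHSC library with reads was again qHSC 4, with 9 reads. The means were 606 ± 453 and 1.54 ± 3.44 (SD, n = 5), a log2 fold change of 8.33 (SE 0.74), given without a p because the filter fixed its direction. When single libraries were left out, the log2 fold change was 8.59 to 10.24 for *S100a8* and 7.98 to 8.96 for *S100a9*, in both the highest without qHSC 4. The ratio of *S100a8* to *S100a9* normalized counts was 4.03, 3.23, 4.25, 3.10 and 4.79 in hypHSC 1 to 5. It was 12.6 in qHSC 4, from 113 and 9 reads.

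*Retnlg*, a resistin-like protein secreted by neutrophils (chr16:48692971-48694861), was detected in hypHSCs only among these 10 libraries. Its hypHSC values were 170, 189, 25.8, 65.0 and 112 normalized counts, and all 5 qHSC libraries were at 0. hypHSC 3 was the lowest and hypHSC 2 the highest. The hypHSC mean was 112 ± 68.9 (SD, n = 5), at least 45.1-fold higher than the floor of 3 reads per qHSC library. Its order was fixed by the filter, so no p is given.

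**Figure D1:**
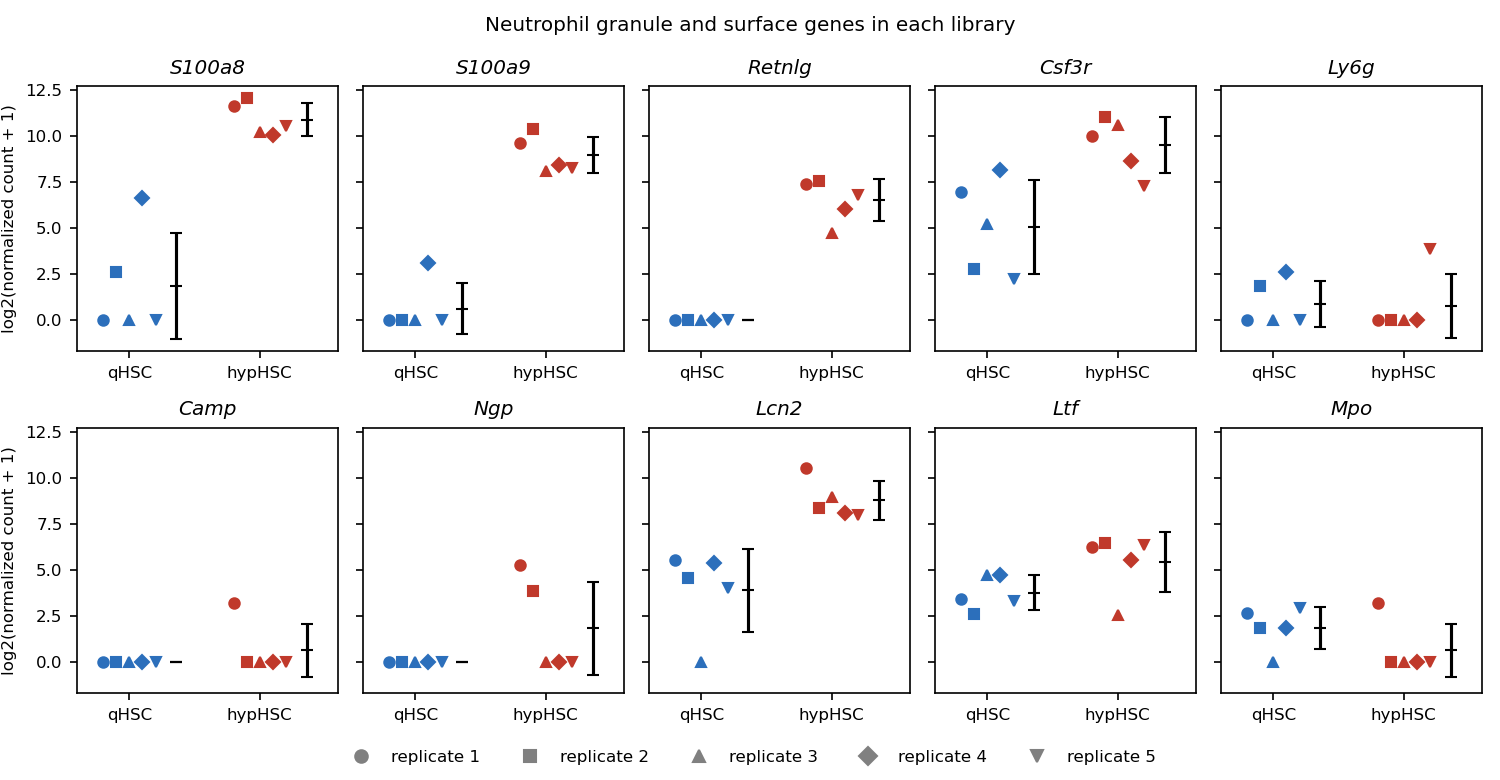
Log2(normalized count + 1) of each of the 10 genes in the 5 qHSC (blue) and 5 hypHSC (red) libraries, with marker shapes for replicate numbers and black bars for the mean and SD. *S100a8*, *S100a9*, *Retnlg* and *Lcn2* show no overlap between groups, *Csf3r* and *Ltf* overlap, and the other 4 genes lie at or near 0 in most libraries. Every hypHSC library was above every qHSC library in 17.6% of all genes tested, and the filter fixed this order for *S100a9* and *Retnlg*.

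*Csf3r*, the receptor through which G-CSF drives neutrophil production and survival (chr4:125918452-125938768), was higher on average with groups that overlapped. The hypHSC libraries held 1030, 2128, 1557, 399 and 157 normalized counts, and the qHSC libraries 125, 5.96, 36.2, 280 and 3.75. hypHSC 5 was below qHSC 4, and qHSC 4 and 1 were the highest of their group. The log2 fold change was 4.45 (SE 1.15, limma adjusted p = 0.00791), with means of 1054 ± 813 and 90.1 ± 117 (SD, n = 5) and an exact permutation p of 0.0159. It was 3.74 without qHSC 5 and 5.21 without qHSC 4, the range over single libraries left out. With the 3 hypHSC libraries of 12 weeks of diet alone, it was 3.78 and no longer called (adjusted p = 0.0522). By GENCODE, 4.61% of the exon bases of *Csf3r* are shared with *Gm32908*. Stretches of at least 59 bases, the read length, also occur in transcripts of other genes, among them *Aldoa*, *Map1lc3b* and *Wls*. The reads were counted without strand and on another annotation, so how such reads were assigned is not known.

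*Lcn2*, a secondary granule protein that binds bacterial siderophores (chr2:32274649-32277783), differed without overlap, with hypHSCs higher, as in 17.6% of all genes tested. Its hypHSC values were 1474, 326, 502, 275 and 250 normalized counts and its qHSC values 45.3, 23.0, 0, 41.1 and 15.0. hypHSC 1 stood above the other hypHSC libraries, and 4 of the 5 qHSC libraries were above the floor. The log2 fold change was 4.88 (SE 0.98, limma adjusted p = 0.00178), with means of 565 ± 518 and 24.9 ± 18.7 (SD, n = 5) and an exact permutation p of 0.00794. It was 3.91 without qHSC 3, the library at 0, and at most 5.29 without any other.

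*Ltf*, lactoferrin, an iron-binding secondary granule protein (chr9:110848358-110871834), was not called. The hypHSC libraries held 74.1, 89.0, 4.99, 46.2 and 81.7 normalized counts, and the qHSC libraries 9.96, 5.11, 26.0, 25.7 and 8.99. Of the hypHSC libraries, 4 were above every qHSC library, while hypHSC 3 was below them all. Both hypHSC 3 and qHSC 2 held 6 reads, so their order comes from the size factors only. The log2 fold change was 1.67 (SE 0.81, limma adjusted p = 0.109; exact permutation p = 0.0952). Without hypHSC 3 it was 2.39 (adjusted p = 0.0071) and the gene was called, as it was with DESeq2 on the recovered reads (1.96, adjusted p = 0.0194).

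The other 4 genes, among them the antigen most used to identify mouse neutrophils, were at or near the floor. *Ly6g* (chr15:75027110-75030977) had 13.6 normalized counts in hypHSC 5 and 0 in the other hypHSC libraries, against 2.56 in qHSC 2, 5.13 in qHSC 4 and 0 in the others. *Ngp* (chr9:110248876-110252078) had 37.7 in hypHSC 1, 13.5 in hypHSC 2 and 0 elsewhere. *Camp* (chr9:109676443-109678524) had 8.09 in hypHSC 1 and 0 elsewhere. *Mpo* (chr11:87684610-87695237), the peroxidase of primary granules, had 8.09 normalized counts in hypHSC 1 and 0 in the other hypHSC libraries, against 5.43, 2.56, 0, 2.57 and 6.74 in qHSC 1 to 5. By GENCODE, 15.3% of its exon bases are shared with *Gm11505*. None of the 4 passed the exact permutation test (p = 1 for *Ly6g* and *Camp*, 0.444 for *Ngp* and 0.206 for *Mpo*), and differences at these counts were not detectable at this depth.

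Levels were compared between genes per exon length, as FPKM (reads scaled to exon length and library size), a scale without a test here. In hypHSCs, *S100a8* was the highest at 54.5 ± 36.0 FPKM (SD, n = 5), followed by *S100a9* at 11.5 ± 8.83, and it was above *S100a9* in each library. *Lcn2* at 5.28 ± 4.88, *Csf3r* at 5.2 ± 4.14 and *Retnlg* at 2.45 ± 1.56 FPKM came next. *S100a9* was above *Lcn2* in each hypHSC library, by little in hypHSC 1 (14.8 against 13.7) and hypHSC 3 (6.05 against 5.32). In reads, *Lcn2* was above *S100a9* in hypHSC 1 (1094 against 576) and hypHSC 3 (604 against 334). The order in these libraries thus rests on the length used, all GENCODE exons merged, of 2623 bases for *Lcn2* and 1276 for *S100a9*. The order of *Lcn2* and *Csf3r*, and that of *Csf3r* and *Retnlg*, changed between libraries. *Ltf* followed at 0.386 ± 0.226 FPKM, below *Retnlg* by more than the SDs. *Ngp*, *Ly6g*, *Camp* and *Mpo* averaged 0.182, 0.0592, 0.045 and 0.0115 FPKM, with SDs larger than these means. In qHSCs the highest means were those of *S100a8* at 0.635 ± 1.33, which was set by qHSC 4, and *Csf3r* at 0.547 ± 0.705 FPKM. The secondary granule genes were unequal in hypHSCs, with *Lcn2* at 1.99 to 13.7 FPKM, *Ltf* at 0.0389 to 0.613 and *Camp* at 0 in 4 of 5 libraries.

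**Figure D2:**
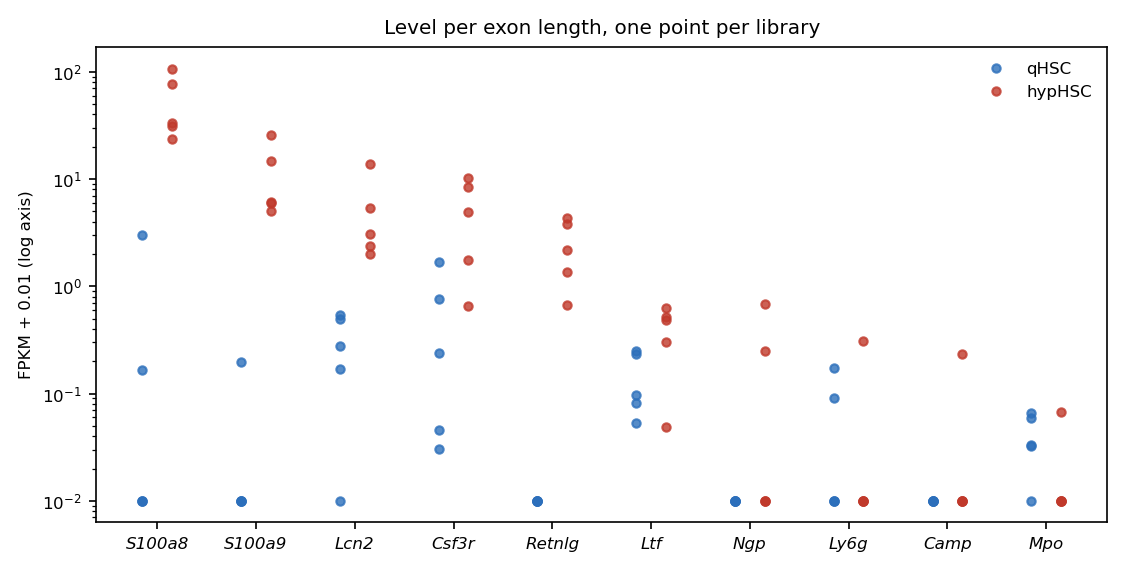
FPKM plus 0.01, on a log axis, of the 10 genes ordered by their hypHSC mean, with a point for each qHSC (blue) and hypHSC (red) library. *S100a8* lies at 23.8 to 107 FPKM in hypHSCs, and *Ngp*, *Ly6g*, *Camp* and *Mpo* lie below 1 FPKM in every library.

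The reads of all 10 genes together made up 163, 205, 98.6, 48.6 and 50.2 in every 1000000 reads in hypHSC 1 to 5, and 5.75, 1.34, 2.02, 14.1 and 0.972 in qHSC 1 to 5. hypHSC 1 and 2, the libraries of 13 weeks of diet, were the highest. In *S100a8*, *S100a9* and *Retnlg*, both were above all 3 libraries of 12 weeks, an order shown by 15.6% of the 14186 genes with enough counts in hypHSCs. *Ngp*, too low to be among those genes, had the same order, from 28 and 13 reads against 0. The ratio of means was 3 for *S100a8*, 3.42 for *S100a9* and 2.66 for *Retnlg*. With 2 libraries against 3 the smallest exact two-sided p is 0.2. These libraries also had the highest mitochondrial shares of reads, in a group that ranged from 2.21% to 12.8%, and the part of this in the result was not tested. *Csf3r* had another order, with hypHSC 2 and 3 the highest.

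Among the qHSC libraries, qHSC 4 had the most reads of the 10 genes and also the highest summed core macrophage level, 117800 normalized counts, followed by qHSC 1 with 52390. Without qHSC 1 and 4, an alternative chosen after the values were seen, the same 5 genes were called, with log2 fold changes of 10.02 for *S100a8*, 8.96 for *S100a9*, 6.52 for *Retnlg*, 6.10 for *Csf3r* and 5.93 for *Lcn2*. The filter fixed the direction of *S100a9* and *Retnlg*, so the calls of these genes carry no weight. Set against *Lyz2*, the genes did not share a pattern. Per 1000 *Lyz2* counts, *S100a8* was at 3.51, 4.57, 1.46, 1.24 and 2.00 in hypHSCs and at 0, 4.04, 0, 3.12 and 0 in qHSCs. *Csf3r* per 1000 *Lyz2* counts was at 0.212 to 2.26 in hypHSCs and at 1.37 to 9.04 in qHSCs. The groups overlapped, as hypHSC 2 (2.26) and hypHSC 3 (1.93) were above qHSC 5 (1.37). *Lcn2* on this scale was at 0.324 to 1.66 in hypHSCs and 0 to 18.2 in qHSCs. Some qHSC values rest on few reads. In qHSC 2 there were 6 reads of *S100a8*, 7 of *Csf3r* and 27 of *Lcn2*, and in qHSC 5 there were 5 of *Csf3r*.

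Other genes of the neutrophil programme were described by lists, beside a median log2 fold change of -0.20 over all genes tested. Of all genes tested, 17.8% were called higher and 21.7% lower, the shares to set beside the counts of every list below. The lists of primary granules, of secondary and tertiary granules, and of the surface of mature neutrophils together held 43 genes in the table. Of the 27 tested, 20 were called higher, 2 lower and 5 not called, with a median log2 fold change of 4.17. Several of the genes that were higher, such as *Itgam*, *Itgb2*, *Cybb* and *Lyz2*, are also expressed by macrophages, so the count is not one of neutrophil-restricted genes.

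In the primary granule list, 2 of 6 genes were tested. *Prtn3*, proteinase 3, was lower in hypHSCs, with 10.8, 3.11, 0, 0 and 0 normalized counts in hypHSCs and 13.6 to 38.5 in qHSCs (log2 fold change -3.63, SE 0.81, limma adjusted p = 0.00338). *Igsf6*, an immunoglobulin superfamily gene also expressed in macrophages, was higher at 10060 ± 3199 against 301.6 ± 386.4 (5.90, SE 0.70, adjusted p = 4.7e-05, limma). *Elane*, neutrophil elastase, had 15.0 normalized counts in hypHSC 3, 5.11 in qHSC 2, 14.2 in qHSC 3 and 0 in the other libraries. *Ctsg*, cathepsin G, and *Ms4a3*, a gene of granulocyte progenitors, were at 0 in all 10 libraries.

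In the secondary and tertiary granule list, 8 of 12 genes were tested, 6 were higher and 2 were not called, with a median log2 fold change of 4.67. *Lyz2* had the largest change (7.21, SE 0.72), followed by *Mmp8*, the neutrophil collagenase (6.89, SE 0.73, limma adjusted p = 2.12e-05). *Mmp8* held 233, 351, 278, 178 and 123 normalized counts in hypHSC 1 to 5 and 0.91, 0, 0, 10.3 and 0 in qHSC 1 to 5. All hypHSC libraries were above all qHSC libraries, an order shown by 17.6% of all genes tested, while the opposite order was shown by 22.0%. *Wfdc21* was at the other end of the list, with a log2 fold change of -1.73 (adjusted p = 0.133, limma). *Mmp9*, gelatinase B of tertiary granules, was below the filter and uneven, with 116, 16.6, 141, 2.10 and 0 normalized counts in hypHSCs and 29.1 in qHSC 4 alone among qHSCs.

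In the list of surface and receptor genes, 17 of 25 were tested, of which 13 were higher, 1 lower and 3 not called. *Mrgpra2b*, among the 13, passed the filter only through hypHSCs. *Clec4d*, a C-type lectin of myeloid cells, had the largest change, with 27370 ± 6153 against 49.9 ± 41.0 normalized counts (SD, n = 5; log2 fold change 9.61, SE 0.67). *Itgam*, which encodes CD11b, was at 3520, 5649, 5567, 1398 and 649 normalized counts in hypHSCs and 0 to 55.6 in qHSCs (7.45, SE 1.02). *G0s2*, an inhibitor of lipolysis in many tissues, was lower, with 756.8 ± 296.8 against 26690 ± 6445 (log2 fold change -5.19, SE 0.27). *Cxcr2*, the receptor by which neutrophils follow CXC chemokines, was below the filter, with 47.2, 97.3, 32.4, 8.39 and 0 normalized counts in hypHSCs. It was at 1.5 in qHSC 5, which is under the floor, and at 0 in the other qHSC libraries. Its hypHSC mean was at least 14.9-fold higher than the floor of 3 reads per qHSC library.

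**Figure D3:**
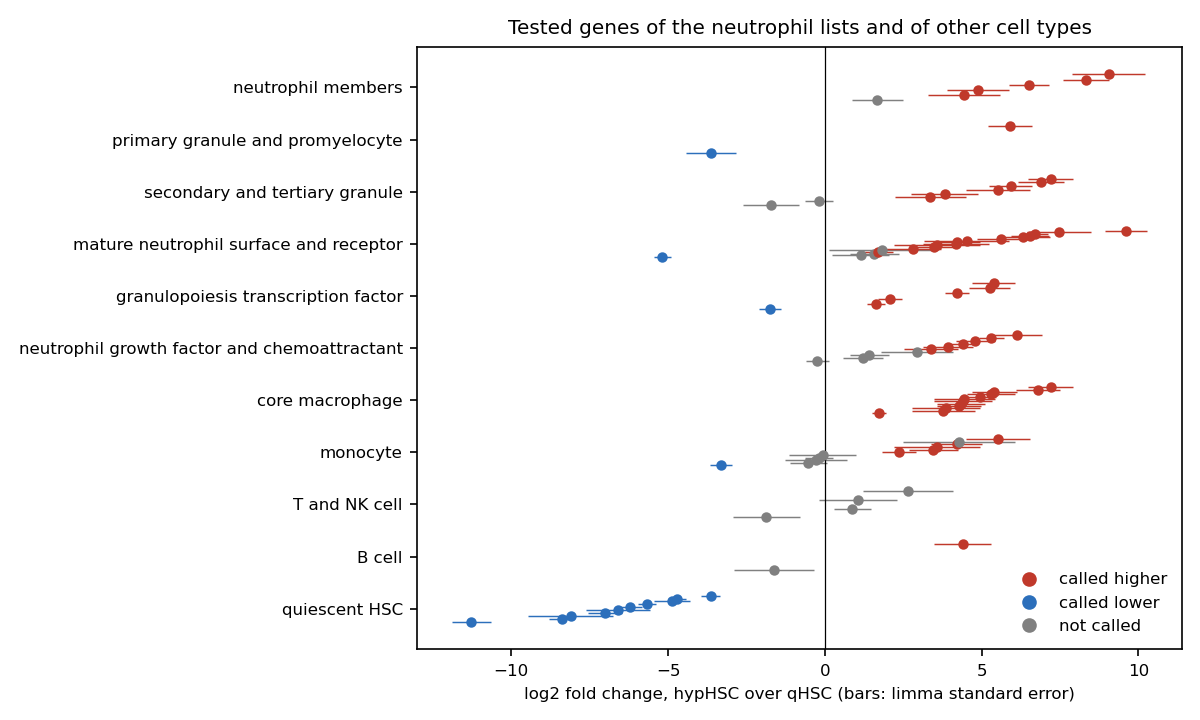
Log2 fold changes of hypHSCs over qHSCs with limma standard errors for the tested genes of each list, in red where called higher, blue where called lower and grey where not called. The 12 core macrophage genes were called higher and the 10 quiescent HSC genes lower, while the primary granule and surface lists held calls in both directions. Of all genes tested, 17.8% were called higher and 21.7% lower.

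Of the transcription factors of granulocyte formation, 6 of 8 were tested, 5 were higher and 1 was lower, with a median log2 fold change of 3.14. *Runx1*, among the 5, passed the filter only through hypHSCs. *Spi1*, which encodes PU.1, showed the largest change (1041 ± 318.2 against 43.4 ± 61.9 normalized counts, log2 fold change 5.38, SE 0.68). *Cebpd* was lower (321.6 ± 149.6 against 1019 ± 267.7, log2 fold change -1.74, SE 0.35, limma adjusted p = 0.0016). *Cebpa*, which drives granulocyte commitment, was higher at 4362 ± 1248 against 264.8 ± 174 (4.21, SE 0.37). *Cebpe*, which acts in granule maturation, had 12.1 normalized counts in hypHSC 1 and 0 in the other hypHSC libraries. *Gfi1*, a repressor in granulocyte formation, was at the floor in all hypHSC libraries, with 19.0 in qHSC 1, 7.70 in qHSC 4 and 0 in the other qHSC libraries.

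Among 14 growth factors and chemoattractants that make or draw neutrophils, 10 were tested, 6 were higher and 4 not called, with a median log2 fold change of 3.66. *Csf3*, which encodes G-CSF, the ligand of *Csf3r*, was at 0 in all 10 libraries, as were *Csf2* and *Il17a*. *Cxcl2*, a CXCR2 ligand, was at 5575 ± 1815 against 155.4 ± 90.7 normalized counts (log2 fold change 5.31, SE 0.40), and *Cxcl3* showed the largest change (6.14, SE 0.78). *Cxcl1*, another CXCR2 ligand, was high in both groups, with 3611 ± 1851 against 3791 ± 618.6 (log2 fold change -0.24, SE 0.37, limma adjusted p = 0.607).

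Of the receptors of calprotectin and lipocalin 2, 6 of 7 were tested, 2 were higher, 1 was lower and 3 were not called, with a median log2 fold change of -0.02. *Cd36*, a scavenger receptor for fatty acids and lipoproteins, was higher at 115500 ± 42130 against 235.7 ± 264 normalized counts (10.05, SE 1.05), and *Emb*, embigin, at 2594 ± 359.5 against 15.1 ± 12.6 (7.78, SE 0.58). *Slc22a17*, a lipocalin 2 receptor, was lower at 17.9 ± 23.6 against 183.6 ± 42.6 (-4.82, SE 1.09). *Tlr4*, through which calprotectin can signal, had a log2 fold change of 0.91 (SE 0.29, limma adjusted p = 0.024), under the fold threshold of a DEG.

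Lists of the other blood and liver cells were read in the same fit, in which 17.8% of all genes tested were called higher and 21.7% lower. The part of macrophage transcripts in the results of these lists was not tested. Of 11 monocyte genes, 5 were higher, 1 was lower and 5 were not called, from *Plac8* (log2 fold change -3.30, SE 0.35) to *Chil3*, a chitinase-like lectin (5.51, SE 1.01). Among the 5, *F13a1* passed the filter only through hypHSCs. Of the granulocyte genes of eosinophils, basophils and mast cells, 4 of 12 were tested and all 4 were higher, led by *Siglecf* at 448 ± 239 against 3.46 ± 5.93 normalized counts (log2 fold change 7.41, SE 0.82), with *Ear2* the smallest (4.87, SE 0.71) and *Ccr3* passing the filter only through hypHSCs. The eosinophil granule genes *Epx* and *Prg2* did not share this order. *Epx*, the eosinophil peroxidase, was at the floor throughout, and *Prg2*, major basic protein, was below the filter, at 0 in all hypHSC libraries and at 48.9, 0, 4.72, 29.1 and 10.5 normalized counts in qHSC 1 to 5 (log2 fold change -3.32, adjusted p = 0.0139, limma without the filter).

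None of the 4 T and NK cell genes tested was called, from *Lck* (log2 fold change -1.86, SE 1.06) to *Cd3d* (2.66, SE 1.43), both of T cell receptor signalling. *Klrb1c*, which encodes NK1.1, was below the filter by a single library, at 135, 139, 8.32, 127 and 40.8 normalized counts in hypHSCs and 0 to 0.75 in qHSCs. Its hypHSC mean was at least 36.1-fold higher than the floor of 3 reads per qHSC library. None of the 5 erythroid genes tested was called, from *Hba-a1* (-3.78, SE 1.94) to *Alas2* (-0.04, SE 0.74), nor any of the 7 hepatocyte genes, from *Fgb* (-1.06, SE 0.996) to *Cyp2e1* (0.24, SE 0.61). Of the B cell genes 1 of 2 tested was higher (*Cd79b*, 4.40, SE 0.91), and *Cd79a* was not called (-1.61, SE 1.27). Of the platelet genes 1 of 4 was higher (*Ppbp*, 3.39, SE 0.87) and 1 lower (*Itga2b*, -5.88, SE 0.93). Of the sinusoidal endothelial genes 2 of 7 were higher, with *Oit3* the largest (5.44, SE 0.75), and 2 lower, with *Tek* the smallest (-3.98, SE 1.12).

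Without the filter, 8 further genes of the lists were called higher and 1, *Prg2*, lower. Of all 19373 genes tested without it, 2865 were called higher and 3392 lower. The 8 held 5 of the surface list (*Cxcr2*, *Trem1*, *Ceacam10*, *Padi4* and *Stfa2l1*), the others being *Il23a*, *Klrb1c* and *Treml1*.

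The likeness of profiles was measured as the root mean square distance between log2 values, each gene centred on its own mean over the 10 libraries, so a smaller value is a closer profile. It rests largely on the difference between the groups. The gene nearest to *S100a8* among all genes tested was *S100a9*, at 1.15, followed by *Dnmt3aos* and *AU022793*. The nearest to *S100a9* were *Dnmt3aos* at 0.606, *Klra3* and *Ccl9*, with *S100a8* at rank 34. *Csf3r* was nearest to the leukocyte genes *Bin2* at 0.492, *Itgal*, which encodes the alpha chain of LFA-1, and *Ncf1*, a subunit of the phagocyte NADPH oxidase. *Retnlg* was nearest to *Rhov*, *Bex4* and *Fgf13*, *Lcn2* to *Coro2a*, *Pianp* and *E330020D12Rik*, and *Ltf* to *Ms4a4c*, *Clec9a* and *Gm6637*. Only *S100a8* had another of the 6 tested genes among its 3 nearest.

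Across the alternative settings, the 6 tested genes kept a higher mean in hypHSCs. The ranges that follow leave out the fits without single libraries and those with a pseudocount other than 1. The log2 fold changes ranged from 6.77 to 10.02 for *S100a8*, 7.64 to 8.96 for *S100a9* and 5.87 to 9.89 for *Retnlg*. They ranged from 3.54 to 6.10 for *Csf3r*, 4.06 to 5.93 for *Lcn2* and 0.80 to 2.32 for *Ltf*.

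**Figure D4:**
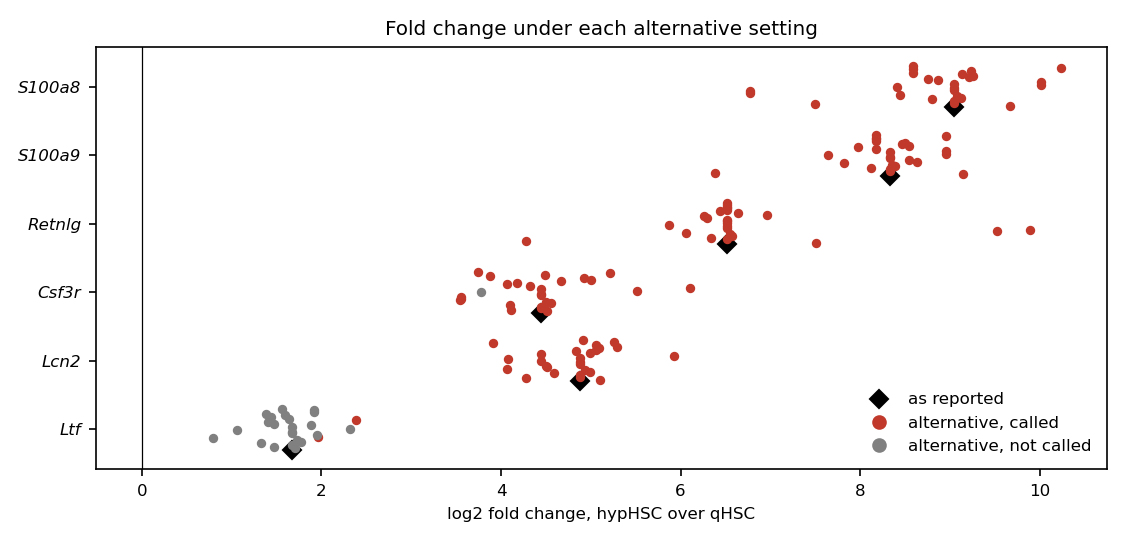
Log2 fold change of hypHSCs over qHSCs for the 6 tested genes as reported (black diamonds) and under each alternative setting, with red points where the gene was called and grey where it was not. All points lie above 0, *Csf3r* has a single grey point and *Ltf* 2 red ones.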

How the data were processed

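Gene expression was measured by RNA-seq in 5 hypHSC and 5 qHSC libraries, made without strand information. The deposited signal is a normalized count: per the labels and the study's methods, the authors mapped reads to mm39 with STAR, counted them per gene with featureCounts (Subread 1.5.0) and divided them by DESeq2 size factors. Whole reads could be recovered from these normalized counts (100% of values within 0.02 reads in every library), and served for depth, FPKM, DESeq2 (1.42.0) and edgeR (4.0.16).

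Named genes that reached 10 normalized counts in 5 or more libraries were compared by limma (3.58.1, intensity trend, R 4.3.3) on log2(normalized count + 1), with Benjamini-Hochberg adjustment over 14630 genes. DEGs had a log2 fold change of 1 or more in size at an adjusted p not above 0.05. Single genes were also compared by exact two-sided permutation. Samples were grouped by their titles. A gene with at most 3 reads was taken as at the floor, a limit that covers counting error only. The fit was tested on simulated data.

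The 10 genes, the lists and the tests were chosen with earlier results of these data known, and some genes stand in more than 1 list. All 10 genes, the genes with the largest and smallest change of each list and cell type-defining genes are named, except 1 gene that is not reported here, with others chosen after their values were seen. Exon lengths, overlaps and promoters came from GENCODE vM39 on GRCm39. Alternatives covered pseudocount, filter, scaling, test, replicate block, diet weeks, age, entries without a symbol and each library left out.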

Additional observations from a re-analysis of the deposited data

Results flagged for a closer look

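In 6 of the 20 sets of 5 libraries examined (10 genes in each group), a single library stood apart from the others by Dixon's criterion on the log2 scale. Chance flags about 1 in 20 such groups, and sets in which the other 4 libraries are at 0 meet the criterion with a single low value. 3 of the 6 were of that kind in hypHSCs, with *Ly6g* at 13.61 normalized counts in hypHSC 5, *Camp* at 8.09 in hypHSC 1 and *Mpo* at 8.09 in hypHSC 1, and 1 in qHSCs, with *S100a9* at 7.70 in qHSC 4. In the other 2, *Lcn2* was at 0 in qHSC 3, where the remaining qHSC values were 15.0 to 45.3, and *Ltf* was at 4.99 in hypHSC 3, against 46.2 to 89.0 in the other hypHSC libraries. *Ltf* was called when hypHSC 3 was left out.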

How the results depend on the processing

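*S100a8* and *Lcn2* stayed called and higher in hypHSCs under every alternative run. *Csf3r* did so under all but 1, the 12-week hypHSC libraries alone (3.78, adjusted p = 0.0522, limma), which has fewer samples. *S100a9* was also called under every alternative, and *Retnlg* under all in which it was tested. The filter fixed the direction of *S100a9* and *Retnlg*, so their calls add no weight. *Ltf* was called with DESeq2 (1.96) and without hypHSC 3, and ranged from 1.38 to 2.39 when single libraries were left out. edgeR gave 1.96 without a call (adjusted p = 0.057). The cause was not tested. Including entries without a symbol raised the DEGs from 5779 to 9291 because more were tested. When genes had to average 100 normalized counts, *Retnlg* was not tested, 4 of the 10 genes were called higher in place of 5, and 1 gene of the 3 other neutrophil lists was called lower, in place of 2, as fewer genes were tested. Of the DEGs, 45.0% were higher as reported, 32.4% with equal totals and 17.4% when scaled by *Hprt*, *Pgk1* and *Actb*. These 2 scalings moved the median of all genes by -0.35 and -0.94, and scaling by the upper quartile moved it by 0.11. Leaving out single libraries gave 5241 to 5914 DEGs, and the recovered reads 5822 with DESeq2 and 5280 with edgeR.

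Same-numbered libraries of the groups share only a number: their deviations correlated at 0.008 to 0.129, above 0.1 in 1 of 5 pairs, and only replicate 5 correlated best with its own number. With the replicate block, 5786 genes were DEGs and the same 5 neutrophil genes were called, with the direction of *S100a9* and *Retnlg* fixed by the filter. Depth limits *Ly6g*, *Camp*, *Ngp* and *Mpo*, which had few or no reads in most libraries.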
